A study of Mus musculus with 16 samples.

Results

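The comparison described here sets a mouse embryonic stem (ES) cell line that carries 1 mutated copy of Cdk4 (Cdk4 +/-) against the +/+ line E14, which the labels name as its control. Its members were chosen by source name: 3 arrays of the Cdk4 +/- line and 3 arrays of E14, 6 of the 16 arrays in the series, with all probe sets of the array that map to 1 gene. The array, an Affymetrix U74Av2, holds 12488 probe sets, of which 10855 map to a single gene and cover 8252 genes. Both lines were grown without feeder cells under standard conditions, and total RNA was taken with RNeasy columns. The labels give the Cdk4 genotype as +/- and name neither the allele nor how it was made. They do not call E14 the parent of the Cdk4 +/- line, so the Cdk4 allele and any other difference between the lines cannot be told apart. The Cdk4 +/- group is 1 line, and the labels do not say whether its 3 RNA samples came from separate cultures, so the spread behind each p may be technical. The other ES cells of the series, an Abca1 +/- line and its +/+ parental line ESVJ with 3 arrays each, grew on irradiated fibroblast feeders that were depleted before RNA isolation, and served here to estimate the spread and as a comparison. Livers of +/+ and Abca1 +/- mice, with 4 arrays in all, were not used.

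Cdk4 encodes a cyclin-dependent kinase that binds D-type cyclins and phosphorylates the retinoblastoma protein and its relatives, which frees E2F factors to switch on genes for S phase. INK4 proteins such as the product of Cdkn2a hold the kinase back, and MYC is known to raise Cdk4 transcription through E boxes in its promoter. ES cells of the mouse are known for a short G1 phase and for low levels of D-type cyclins compared with somatic cells.

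Each value is a MAS5 signal, a brightness in arbitrary units, scaled so that the trimmed mean of every array is 500. All log2 differences and folds were computed after adding 32 to the signal, so changes of dim genes are understated. Probe sets with a mean signal of at least 100 over the 12 ES arrays were tested with limma, p-values were adjusted by Benjamini-Hochberg over all 7349 of them, and "passed", "rose" and "fell" refer to an adjusted p under 0.05. The 7349 also include probe sets that do not map to a single gene, while control probe sets were left out. The median signal of the 6 arrays lay between 153 and 170. Cdk4 +/- replicate 2 stood apart: its BioB hybridisation control was at 1405, with 552 to 762 in the other arrays, its brightest signal was 28891, with 17524 to 19516 in the others, and its correlation with the other Cdk4 +/- arrays was 0.961 to 0.968, while those correlated with r = 0.987. Within E14, r was 0.960 to 0.973, and between the lines it was 0.947 to 0.969. Precision was limited by the 3 arrays per line, and a typical log2 difference had a 95% interval of 0.373 on either side. The 8 ES cell markers were all measured and their summed signal was 32440 to 38080 in E14 and 37760 to 44240 in Cdk4 +/- arrays. Pou5f1, the central transcription factor of pluripotency, was at 7084 ± 537 in E14 and 7033 ± 702 in Cdk4 +/- (SD, n = 3 per group). Hprt, a purine salvage gene, was at a mean signal of 61.9 in E14 and 31.0 in Cdk4 +/-, with 2983 in ESVJ, so that both lines shared a level near 1 to 2% of that in ESVJ (1.04% and 2.08%).

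Cdk4 itself was lower in the Cdk4 +/- line in every array. By its brighter probe set the signal was 5822, 5498 and 5827 in E14 and 3448, 3854 and 3731 in Cdk4 +/-. The groups did not overlap, and the arrays of each line lay close together. The log2 difference was -0.63 (SE 0.10, limma adjusted p = 0.00436), a level of 64.5% of E14 with a 95% interval of 55.5% to 74.9%. The dimmer probe set read 2068, 1350 and 1775 in E14 and 1126, 820 and 1201 in Cdk4 +/-, again without overlap, with a log2 difference of -0.70 that did not pass (adjusted p = 0.104). For both probe sets an exact two-sided permutation test returned p = 0.1, which is the lowest value possible with 3 arrays on each side. When any of the 6 arrays was left out, the brighter probe set still passed (adjusted p up to 0.0342). In ESVJ and Abca1 +/- cells its mean signal was 6711 and 6905, and E14 was at 85.2% of ESVJ. By the dimmer probe set the means were 3231 in ESVJ, 3171 in Abca1 +/-, 1731 in E14 and 1049 in Cdk4 +/-. There the +/+ line E14 was at 53.6% of ESVJ, and Cdk4 +/- at 60.6% of E14. Bulk RNA gives 1 level per culture, so fewer cells with the transcript and less transcript per cell cannot be told apart, here and in all results below.

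Cdk4 lies on chromosome 10 at chr10:127063535-127067288 (GRCm38.p6). The 250 bases before its start in the RefSeq annotation, chr10:127063285-127063534 on the plus strand, are shown because they hold the E boxes through which MYC is known to act on the gene. Capitals mark the motif CACGTG, which reads the same on both strands and is present 4 times here, from 172 to 11 bases before the start. At least 1 such match was found in 6.02% of 32851 promoter windows of this length.
Cdk4: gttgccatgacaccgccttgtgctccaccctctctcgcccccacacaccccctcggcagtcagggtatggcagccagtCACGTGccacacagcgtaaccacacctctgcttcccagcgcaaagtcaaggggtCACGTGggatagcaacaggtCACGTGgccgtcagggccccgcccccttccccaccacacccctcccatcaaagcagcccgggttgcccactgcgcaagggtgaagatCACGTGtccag
Of the 6 nearest measured genes, Tsfm, a mitochondrial translation elongation factor gene, fell (log2 -0.58, SE 0.15, adjusted p = 0.0400), and this call held without E14 replicate 3 and was lost without any of the other 5 arrays (adjusted p from 0.0734 to 0.149). Tspan31, which adjoins Cdk4, was at 0.67 (SE 0.24, adjusted p = 0.126), Ctdsp2 at 0.21, Mettl1 and Pip4k2c at 0.05 each and Arhgef25 at -0.05, and none of these passed.

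The partners and inhibitors of Cdk4 showed no change that passed. Among 16 measured genes of the G1 machinery Cdk4 itself fell, no gene rose, and the median log2 difference was -0.11, with 0.02 over all genes. Ccnd1, a D-type cyclin gene, was at -0.12 and -0.59 by its 2 probe sets (adjusted p = 0.811 and 0.228), and Ccnd3, another, was at 0.06. Cdkn1a, which encodes the inhibitor p21, had signals of 1048, 1067 and 1203 in E14 and 1180, 844 and 1043 in Cdk4 +/-, with overlap. The inhibitor gene Cdkn2a was at 580, 556 and 486 in E14 and 395, 414 and 406 in Cdk4 +/-, without overlap, and its difference of -0.39 did not pass. Ccne1, the cyclin that acts after the D cyclins, was at -0.50 (SE 0.19, adjusted p = 0.140), and its lowest E14 array (1547) lay within the Cdk4 +/- range of 1331 to 1792. Of 11 pocket protein and E2F genes 1 rose and none fell: Hdac1, a histone deacetylase that pocket proteins recruit, at 1073, 1141 and 1073 in E14 and 1832, 1916 and 1992 in Cdk4 +/-. All its Cdk4 +/- arrays were above all its E14 arrays, a 1.72-fold rise (adjusted p = 0.00440) that passed with each array left out.

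**Figure D1:**
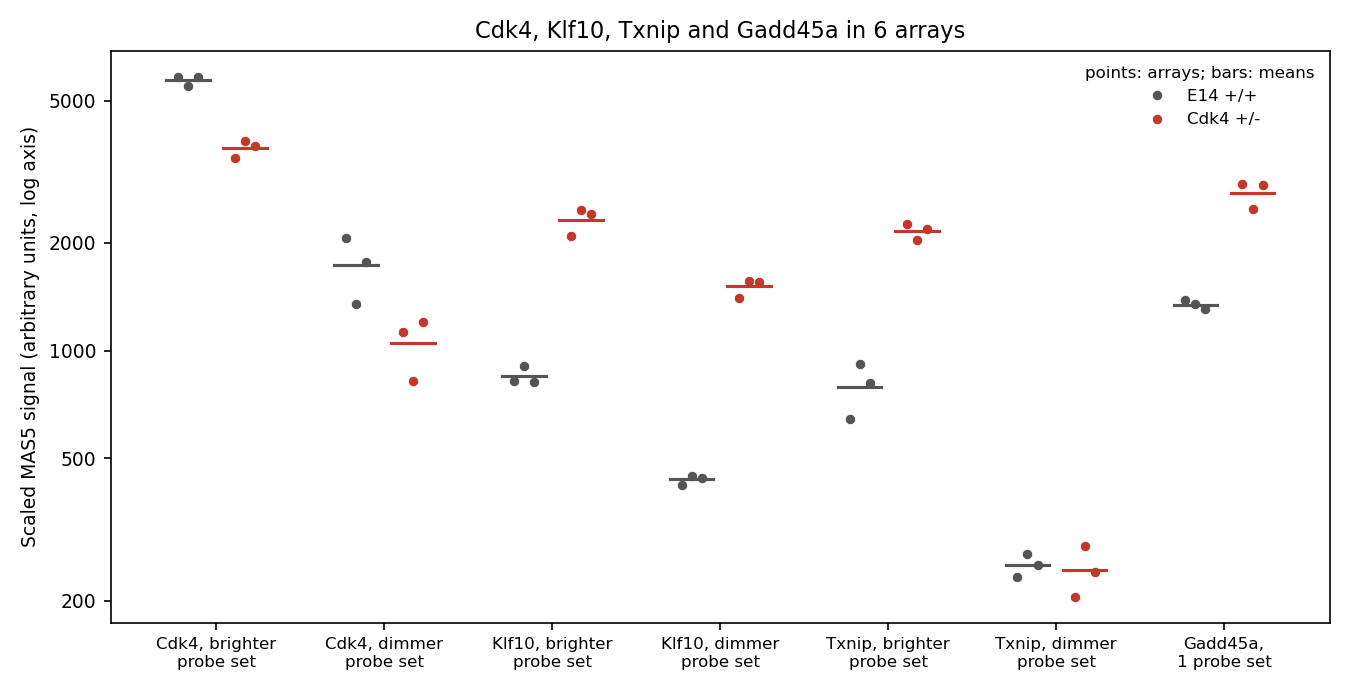
Signal (arbitrary units, log axis) of Cdk4, Klf10, Txnip and Gadd45a by probe set in 3 E14 arrays (grey) and 3 Cdk4 +/- arrays (red); points are arrays and bars are means. Cdk4 lies lower in Cdk4 +/- in both probe sets, Klf10, Gadd45a and the brighter Txnip probe set lie higher, and the dimmer Txnip probe set overlaps between the lines.

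Across the array, 361 of 7349 probe sets passed, 4.91% of those tested, with 190 higher (2.59%) and 171 lower (2.33%) in Cdk4 +/-. They covered 319 named genes, and 32 of them had no single gene in the annotation. Taking 1 probe set per gene, 159 of 5590 genes rose (2.84%) and 137 fell (2.45%), 5.3% in all, and this share is the background for the lists below, which count each gene by its brightest probe set. Most differences were moderate: the median absolute log2 difference of the probe sets that passed was 0.68, and 39 reached 2-fold or more, 27 higher and 12 lower. The groups did not overlap in 353 of the 361, and in 1831 (24.9%) of all probe sets tested. At an unadjusted p under 0.05 there were 1529. The number that passed depended on single arrays: it was 69 higher and 37 lower without E14 replicate 1, 86 and 30 without E14 replicate 2, 262 and 259 without E14 replicate 3, 42 and 26 without Cdk4 +/- replicate 1, 181 and 159 without Cdk4 +/- replicate 2, and 45 and 31 without Cdk4 +/- replicate 3. Of the 361, 56 kept their call whichever of the 6 arrays was dropped, 34 higher and 22 lower. These 56 covered 50 named genes, among them Klf10, Txnip, Gadd45a, Stat6, Atf4, Herpud1, Tbx3, Klf4, Cdk4, Ppan, Gclm, Gclc, Socs1, Hspa1b and Yy1.

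**Figure D2:**
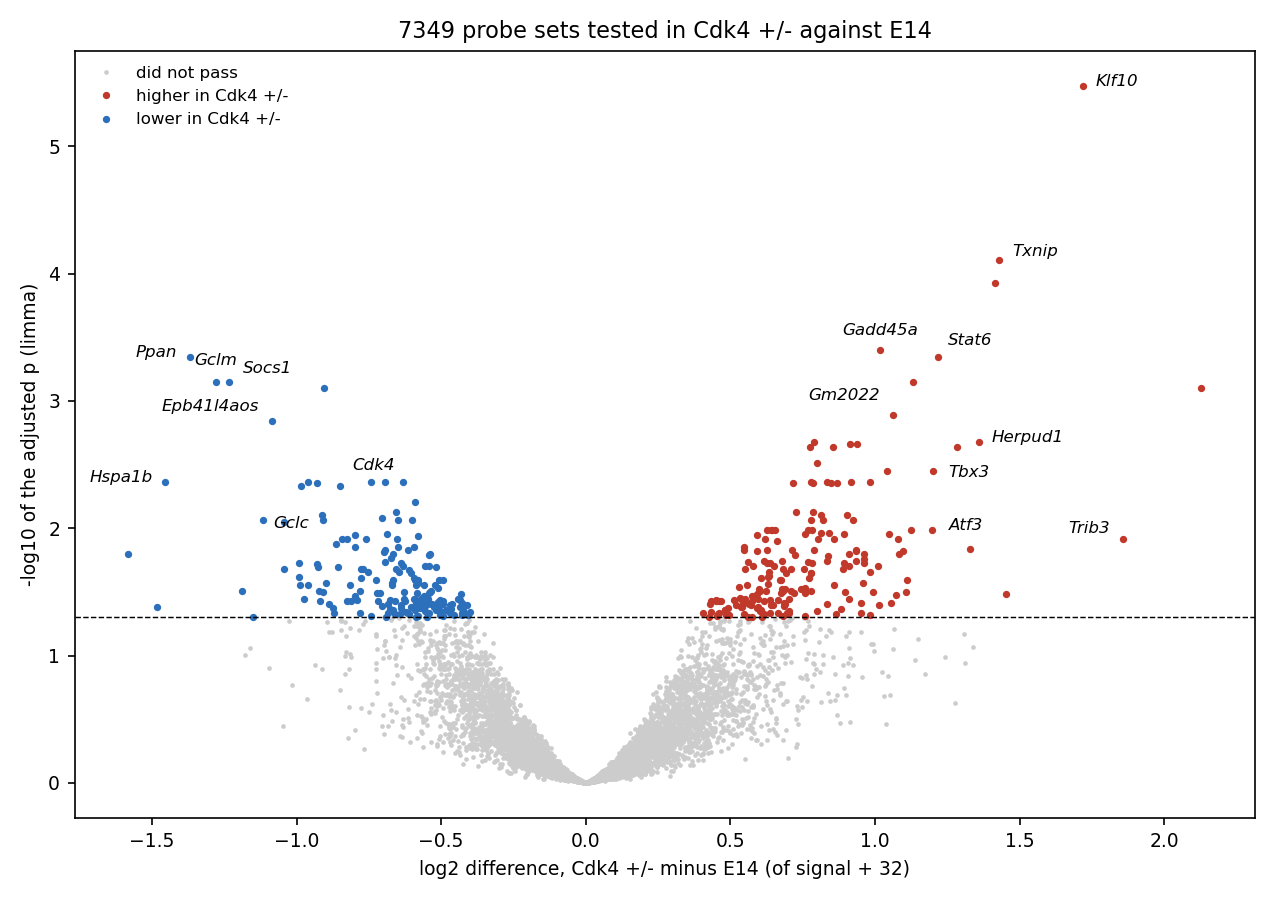
Each point is 1 of 7349 probe sets, with the log2 difference of Cdk4 +/- and E14 on the horizontal axis and the -log10 of the limma adjusted p on the vertical axis; the dashed line is an adjusted p of 0.05. Klf10, Txnip and Gadd45a stand highest among the 190 higher probe sets, and Ppan, Gclm and Socs1 among the 171 lower ones.

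Klf10, Txnip and Gadd45a, genes known from growth arrest, rose together. Klf10, a zinc finger repressor that TGF-beta induces early, had signals of 824, 907 and 818 in E14 and 2089, 2475 and 2403 in Cdk4 +/- by its brighter probe set. Its dimmer probe set read 422, 446 and 442 against 1408, 1570 and 1558. Both showed every Cdk4 +/- array above every E14 array by more than the spread within either line, with rises of 2.67-fold (adjusted p = 1.20e-04) and 3.29-fold (adjusted p = 3.34e-06). Txnip, which encodes an arrestin that binds thioredoxin and restrains glucose uptake, read 643, 918 and 811 in E14 and 2261, 2042 and 2194 in Cdk4 +/-. This rise of 2.70-fold (adjusted p = 7.82e-05) was seen by 1 of its 2 probe sets. The other, at 233, 271 and 252 against 205, 285 and 241, overlapped between the lines (log2 -0.05, adjusted p = 0.920). Gadd45a, a stress sensor that binds cyclin-dependent kinase complexes and PCNA, read 1383, 1347 and 1306 in E14 and 2916, 2481 and 2901 in Cdk4 +/-, a 2.03-fold rise (adjusted p = 3.96e-04). All 3 genes passed with each array left out, Klf10 and Txnip with an adjusted p of at most 0.00179. In ESVJ the mean signals were 1182, 1343 and 1683, between the E14 and Cdk4 +/- levels for each of the 3.

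Txnip is known to answer glucose through MondoA and ChREBP, which bind a carbohydrate response element of paired E boxes. The 250 bases before its start, chr3:96557707-96557956 on the plus strand (GRCm38.p6, RefSeq), are shown for that element, with the match, 2 CACGNG boxes with 5 bases between them, in capitals, 85 bases before the start. Searched on both strands, this motif was found in 0.0457% of the 32851 windows, and among 126 higher genes with a window in Txnip alone.
Txnip: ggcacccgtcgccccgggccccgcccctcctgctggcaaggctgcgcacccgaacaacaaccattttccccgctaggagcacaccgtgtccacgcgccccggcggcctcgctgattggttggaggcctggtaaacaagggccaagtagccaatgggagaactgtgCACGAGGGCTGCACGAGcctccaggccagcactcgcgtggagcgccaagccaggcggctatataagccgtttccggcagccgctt
Of 14 measured genes of the MondoA and ChREBP response 3 rose and none fell, Txnip, Klf10 and Elovl6, which lengthens fatty acids and read 640, 685 and 404 in E14 and 1190, 997 and 1108 in Cdk4 +/-. The lowest Cdk4 +/- array of Elovl6 was above the highest E14 array (1.90-fold, adjusted p = 0.00862). These values are from its brighter probe set, and its dimmer one was at 0.38 and did not pass (adjusted p = 0.403). The list median was -0.06, below that of all genes, with Fasn, the fatty acid synthase gene, at -0.49 (adjusted p = 0.0627) and Tkt, a pentose phosphate enzyme gene, at -0.68 (adjusted p = 0.239). In the wider list of growth arrest and FoxO targets, 5 of 24 measured genes rose (20.8%), none fell and 19 did not pass, with a median of 0.37. Beside Klf10, Txnip and Gadd45a these were Klf4, a reprogramming factor that slows division in epithelia (log2 0.79, SE 0.14), and Ccng2, a cyclin that rises in arrested cells (0.84, SE 0.18). Klf10, Txnip and Gadd45a were named with the comparison, and whether they were chosen without these values is not known. The lists were written with earlier results known, so their shares are no separate evidence. Ccng2 did not pass without Cdk4 +/- replicate 1 (adjusted p = 0.0889) or replicate 3 (adjusted p = 0.0808). Foxo3, a forkhead factor of this response, read 308, 318 and 448 in E14 and 603, 1091 and 434 in Cdk4 +/-, with overlap (log2 0.85, adjusted p = 0.0649). Of 13 measured p53 response genes 1 rose, Gadd45a, and none fell, with Mdm2 at -0.47 (adjusted p = 0.271). Of 35 immediate early genes, which respond first to stimuli, Klf10, Klf4 and Atf3 rose and none fell.

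ATF4 is the transcription factor of the integrated stress response: when eIF2alpha is phosphorylated, its translation rises and it switches on genes for amino acid supply, together with Atf3, Trib3 and other regulators. Of 38 measured genes of the ATF4 and amino acid response 3 rose, 1 fell and 34 did not pass, with a median of 0.17. Atf4 itself read 1354, 1467 and 1563 in E14 and 2898, 2648 and 2932 in Cdk4 +/-. The lines were far apart relative to the spread within each, and the rise of 1.92-fold (adjusted p = 0.00219) passed with each array left out. Trib3, a pseudokinase that dampens ATF4 and AKT, had the largest rise of a named gene, at 158, 90.7 and 314 in E14 and 879, 400 and 942 in Cdk4 +/-. Its E14 replicate 3 was highest in E14 and its Cdk4 +/- replicate 2 lowest in Cdk4 +/-, and the groups did not overlap (3.62-fold, adjusted p = 0.0121). Atf3 read 386, 406 and 502 in E14 and 1278, 665 and 1262 in Cdk4 +/-, with the same Cdk4 +/- array nearest to E14 (2.30-fold, adjusted p = 0.0104). The other Atf3 probe set was at 0.70 and did not pass (adjusted p = 0.0533). Trib3 and Atf3 did not pass without Cdk4 +/- replicate 1 (adjusted p = 0.0616 and 0.0589) or replicate 3 (0.0639 and 0.0590), nor did Trib3 without E14 replicate 2 (0.0574). Tars, a threonyl-tRNA synthetase gene, fell (log2 -0.60, adjusted p = 0.0247) and passed only without E14 replicate 3 when 1 array was left out (adjusted p otherwise from 0.0574 to 0.0744). Ddit3, which encodes the stress factor CHOP, read 94.0, 95.1 and 287 in E14 and 437, 240 and 579 in Cdk4 +/-, and Nupr1, a small chromatin protein gene, read 159, 84.7 and 486 against 589, 399.8 and 623. In both genes E14 replicate 3 lay inside the Cdk4 +/- range, and neither passed (adjusted p = 0.113 and 0.0674).

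Among 27 measured genes of protein folding in the endoplasmic reticulum 2 rose, 1 fell and 24 did not pass, with a median of -0.04. Herpud1, which helps to degrade misfolded proteins at the endoplasmic reticulum, read 215, 210 and 236 in E14 and 717, 466 and 695 in Cdk4 +/-, a 2.57-fold rise (adjusted p = 0.00212). Ppp1r15b, the constitutive subunit of the phosphatase that reverses eIF2alpha phosphorylation, read 697, 695 and 629 against 1443, 1145 and 1324, a 1.89-fold rise (adjusted p = 0.00436). Every Cdk4 +/- array of both genes lay above every E14 array, and both passed with each array left out. Sec61b, a subunit of the protein translocation channel, fell (log2 -0.71, adjusted p = 0.0322), and this call was lost without E14 replicates 1 or 2 or Cdk4 +/- replicates 1 or 3 (adjusted p from 0.0980 to 0.138). Xbp1, the factor of another branch of the unfolded protein response, was at -0.41 (adjusted p = 0.0656) with signals of 684, 613 and 674 in E14 and 521, 480 and 461 in Cdk4 +/-, lower in all 3 Cdk4 +/- arrays.

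The promoters of Atf3, on the minus strand at chr1:191183334-191183583, and Herpud1, on the plus strand at chr8:94386179-94386428, are shown because both genes rose and both windows hold the composite site of C/EBP and ATF factors (GRCm38.p6, RefSeq). Capitals mark TTGCATCA, which begins 110 and 112 bases before the starts.
Atf3: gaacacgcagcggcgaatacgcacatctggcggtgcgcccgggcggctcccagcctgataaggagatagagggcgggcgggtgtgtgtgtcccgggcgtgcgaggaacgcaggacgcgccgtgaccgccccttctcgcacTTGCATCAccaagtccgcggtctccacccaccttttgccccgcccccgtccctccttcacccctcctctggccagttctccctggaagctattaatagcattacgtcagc
Herpud1: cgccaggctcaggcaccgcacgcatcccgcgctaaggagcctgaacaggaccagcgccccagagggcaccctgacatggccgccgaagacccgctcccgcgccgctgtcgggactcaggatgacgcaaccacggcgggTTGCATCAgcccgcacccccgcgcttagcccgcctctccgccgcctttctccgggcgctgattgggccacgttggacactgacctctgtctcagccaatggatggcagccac
On either strand this motif was found in 0.791% of the 32851 windows, in 4 of 126 higher genes with a window (3.17%: Atf3, Capn3, Galnt11 and Herpud1) and in 1 of 114 lower genes (0.877%: Tars). These shares rest on few genes, the windows also cover genes that were not tested, and no window of Trib3 or Atf4 matched.

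Gclm and Gclc fell in Cdk4 +/-, while Gss, which completes glutathione synthesis, was at 0.12 and did not pass. Gclm and Gclc encode the modifier and the catalytic subunit of glutamate-cysteine ligase, the rate-limiting enzyme of glutathione synthesis, and both are classical targets of NRF2. Gclm read 989, 885 and 732 in E14 and 297, 366 and 351 in Cdk4 +/-, a fall of 1.28 on the log2 scale (adjusted p = 7.06e-04). Gclc read 453, 484 and 495 in E14 and 225, 214 and 284 in Cdk4 +/- (log2 -0.91, adjusted p = 0.00862). In both genes every Cdk4 +/- array was below every E14 array. Counted by the brightest probe set, 5 of 31 measured genes of NRF2 and glutathione fell (16.1%) and none of the other 26 passed. Gstm2, a glutathione transferase gene, was at 0.23 by that probe set, but its dimmer probe set read 126, 130 and 97.2 in E14 and 367, 191 and 315 in Cdk4 +/- and rose by 1.07 (adjusted p = 0.0333). That call of Gstm2 was lost without any array but Cdk4 +/- replicate 2 (adjusted p from 0.0626 to 0.151). The median was -0.07, and 20 of the 31 lay below 0. Cbr3, a carbonyl reductase gene, read 303, 240 and 353 in E14 and 79.5, 176 and 116 in Cdk4 +/- (log2 -1.12, adjusted p = 0.00862). Fth1, the heavy chain of ferritin, read 5253, 4606 and 4456 against 2991, 3008 and 3024 (log2 -0.66, adjusted p = 0.00748), while its other tested probe set was at 0.43 and did not pass (adjusted p = 0.286). Gclm, Gclc, Cbr3 and Fth1 passed with each array left out. Txnrd1, thioredoxin reductase, fell by 0.51 and lost its call without E14 replicates 2 or 3 or Cdk4 +/- replicates 1 or 3 (adjusted p from 0.0782 to 0.180). Nqo1 and Hmox1, well-known NRF2 targets named after their values were seen, did not pass: Nqo1 was at -0.18 and -0.04 by its probe sets, Hmox1 at -0.07 with a Cdk4 +/- range from 368 to 1711, and Srxn1, another target, was at 0.65 by 1 probe set and -0.56 by the other (adjusted p = 0.0655 and 0.103).

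The window before Gclm, chr3:122245307-122245556 on the plus strand (GRCm38.p6, RefSeq), is shown for the core of the antioxidant response element, TGACNNNGC, which NRF2 is known to bind. Capitals mark its match on the opposite strand, 134 bases before the start.
Gclm: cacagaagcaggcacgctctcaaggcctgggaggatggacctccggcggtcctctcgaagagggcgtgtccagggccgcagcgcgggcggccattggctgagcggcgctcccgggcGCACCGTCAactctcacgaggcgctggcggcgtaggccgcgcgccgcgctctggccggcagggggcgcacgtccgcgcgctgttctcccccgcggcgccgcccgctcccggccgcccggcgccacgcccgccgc
This short motif was found on either strand in 10.2% of all windows, in 13.2% of 114 lower genes and in 11.9% of 126 higher genes.

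Of 23 measured heat shock genes, by the brightest probe set, 1 fell, Hspa1b, an inducible Hsp70 gene, and none rose. Fkbp4, an Hsp90 cochaperone gene, was at -0.22 by its brightest probe set and fell by 0.54 by the dimmer one (adjusted p = 0.0163), a call lost without E14 replicates 1 or 2 or Cdk4 +/- replicate 3 (adjusted p from 0.0562 to 0.0785). Hspa1b read 671, 525 and 1033 in E14 and 258, 227 and 238 in Cdk4 +/-, so that E14 replicate 3 was highest and the Cdk4 +/- arrays lay close together. The log2 difference of -1.46 (SE 0.24, adjusted p = 0.00436) was the largest fall with each named gene taken by its brightest probe set, and it passed with each array left out. Its near-identical neighbour Hspa1a read 307, 198 and 667 against 227, 196 and 218, with overlap, and the probe sets may share targets, so the split between these genes is uncertain. Dnajb1, an Hsp40 gene, was at -0.59 (adjusted p = 0.0700), and the list median was -0.12.

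Ppan, Bop1 and 3 other genes of ribosome assembly fell, while most of their list did not pass. Of 51 measured genes of ribosome biogenesis and the nucleolus 5 fell (9.80%), none rose and 46 did not pass, with a median of -0.12, 34 of the 51 below 0 and 17 above. Ppan, which is required for maturation of the large subunit, read 1652, 1705 and 1187 in E14 and 524, 669 and 498 in Cdk4 +/-. All Cdk4 +/- arrays were far below all E14 arrays, a fall of 1.37 on the log2 scale (adjusted p = 4.54e-04) that passed with each array left out. Bop1, a partner in processing of the large-subunit RNA, read 1720, 1756 and 1123 against 632, 1036 and 706 (log2 -0.93, adjusted p = 0.0191). E14 replicate 3 was the lowest E14 array and Cdk4 +/- replicate 2 the highest Cdk4 +/- array, as for Polr1d, a subunit of RNA polymerases I and III (-0.59), Imp3, a small-subunit processome gene (-0.57), and Rrp9 (-0.51), a protein of the U3 snoRNP. Without E14 replicates 1 or 2 or Cdk4 +/- replicates 1 or 3, Bop1, Polr1d, Imp3 and Rrp9 did not pass (adjusted p from 0.0808 to 0.179). Nop2, a nucleolar methyltransferase gene, was at -0.42 (adjusted p = 0.0703), and Wdr74 at -0.57 (adjusted p = 0.0555).

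Of 43 measured MYC genes and known targets 3 fell, 1 rose and 39 did not pass, with a median of -0.14 and 28 below 0. Ppan, Bop1 and Cdk4 were the 3 that fell. Ppan and Bop1 are also counted in the ribosome list above, and Cdk4 is the mutated gene itself. Mnt, a MAX partner that opposes MYC, rose (log2 0.71, adjusted p = 0.0310), a call that leaving out any array but E14 replicate 3 ended (adjusted p from 0.0516 to 0.131). Myc and Mycn were named after their values were seen. Myc read 489, 463 and 482 in E14 and 633, 692 and 611 in Cdk4 +/-, higher in all 3 arrays without passing (log2 0.41, adjusted p = 0.317), and Mycn was at -0.04. Of 36 measured translation factors, by the brightest probe set, 1 fell, Eif6, which keeps the ribosomal subunits apart (log2 -0.46, adjusted p = 0.0478), and it passed in no fit with 1 array left out (adjusted p from 0.0562 to 0.129). Eif4ebp2, an inhibitor of the cap-binding protein, was at -0.17 by its brightest probe set and fell by 0.69 by the dimmer one (adjusted p = 0.0184), a call lost without E14 replicates 1 or 2 or Cdk4 +/- replicates 1 or 3 (adjusted p from 0.0673 to 0.0753).

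Stat6 rose and Socs1 fell, both members of JAK-STAT signalling, the pathway through which leukaemia inhibitory factor (LIF) keeps ES cells undifferentiated. Stat6, the transducer of interleukin-4 signals, read 198, 174 and 163 in E14 and 463, 452 and 451 in Cdk4 +/-. The Cdk4 +/- arrays were close to each other and all above E14, a 2.32-fold rise (adjusted p = 4.54e-04). Socs1, an inhibitor of JAK kinases that cytokines induce, read 472, 514 and 393 against 165, 159 and 206, a fall of 1.24 on the log2 scale without overlap (adjusted p = 7.06e-04). Pim1, a kinase gene that STAT3 induces, read 2812, 2786 and 2336 in E14 and 4249, 5015 and 4380 in Cdk4 +/-, a 1.71-fold rise (adjusted p = 0.00231). Its other probe set was at 0.59 and did not pass (adjusted p = 0.174). Together with Klf4, the genes Stat6, Pim1 and Socs1 made 3 rises and 1 fall among 27 measured genes of the LIF and JAK-STAT list. There 23 did not pass and the median was 0.17. All 4 passed with each array left out. Lifr, the LIF receptor, was at 0.45 (adjusted p = 0.152) and Tfcp2l1, a STAT3 target of the pluripotency network, at 0.45 (adjusted p = 0.0767).

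Some genes of antigen presentation and of the interferon response fell, while most of their list did not pass. Of 23 measured genes of the MHC class I and interferon list 6 fell (26.1%) and none of the other 17 passed, with a median of -0.27 and 17 of the 23 below 0. They were Socs1, the immunoproteasome subunits Psmb8 (log2 -0.92) and Psmb10 (-0.72), the proteasome activator subunit Psme1 (-0.52), the class I heavy chain H2-D1 (-0.56) and Trim25, a ubiquitin ligase of antiviral RNA sensing (-0.91). Psmb8 read 503, 535 and 274 in E14 and 169, 278 and 189 in Cdk4 +/-, where E14 replicate 3 lay inside the Cdk4 +/- range. Trim25 read 1652, 1629 and 1330 against 722, 881 and 797, without overlap (adjusted p = 0.00789). Socs1 and Trim25 passed with each array left out. Psmb8 and Psmb10 did not pass without E14 replicates 1 or 2 or Cdk4 +/- replicates 1 or 3, Psme1 passed only without E14 replicate 3, and H2-D1 passed in none of these fits (adjusted p from 0.0504 to 0.155). H2-D1 has close relatives whose transcripts its probe set may share. The other H2-D1 probe set was at -0.14 and did not pass (adjusted p = 0.628). H2-M3, another class I gene, was at 0.78 and did not pass (adjusted p = 0.174). B2m, the light chain of class I molecules, was higher in each Cdk4 +/- array without passing, at 887, 1139 and 1106 in E14 and 1988, 1466 and 1693 in Cdk4 +/- (adjusted p = 0.0987).

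Pluripotency genes that passed were all higher. Of 40 measured members 4 rose, none fell and 36 did not pass, with a median of 0.21 and 30 of the 40 above 0. Tbx3, a T-box factor that sustains self-renewal, read 70.4, 98.4 and 62.1 in E14 and 231, 204 and 215 in Cdk4 +/-, a 2.30-fold rise from a dim level (adjusted p = 0.00354). Klf4 read 1466, 1622 and 1420 against 2839, 2435 and 2568 (1.72-fold, adjusted p = 0.00750). Both passed with each array left out and showed no overlap. Nanog, the homeobox factor that marks the ground state, read 4648, 5425 and 3554 in E14 and 6623, 7241 and 6799 in Cdk4 +/-. Its lowest E14 array was replicate 3, and the lines did not overlap (1.53-fold, adjusted p = 0.0374). Sall4, a zinc finger partner of Pou5f1, rose 1.54-fold (adjusted p = 0.0148). Sall4 did not pass without E14 replicate 1 (adjusted p = 0.0556) or Cdk4 +/- replicate 1 (0.0530). By its brightest probe set, Nanog passed only without E14 replicate 2 (adjusted p otherwise from 0.0711 to 0.107). Another Nanog probe set rose by 0.78 and passed with all arrays in the fit. Sox2 was at 0.11 and Pou5f1 at -0.01. Lefty1, a Nodal antagonist, read 4020, 4283 and 1910 in E14 and 1539, 2051 and 1751 in Cdk4 +/-, with E14 replicate 3 inside the Cdk4 +/- range (log2 -0.85, adjusted p = 0.0524).

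Of 30 measured genes of TGF-beta, Nodal and BMP signalling 5 rose, 1 fell and 24 did not pass, with a median of 0.23. Among the targets, Klf10, Id3, a BMP-induced inhibitor of differentiation factors (log2 0.75), and Tnc, the matrix protein tenascin C (1.13), rose. Tnc had mean signals of 36.5 in E14, 117 in Cdk4 +/-, 138 in ESVJ and 132 in Abca1 +/-. With Cdk4 +/- at the E14 level, Tnc would have missed the filter of a mean signal of 100 and not been tested. Its place among the 5 that rose therefore depends on the group in which it was higher. Tgif1, a corepressor that binds SMAD complexes, read 2929, 2777 and 2679 in E14 and 4474, 5368 and 4069 in Cdk4 +/-, without overlap (1.64-fold, adjusted p = 0.00443). Smad1, the transducer of BMP signals, rose by 0.64 by its brightest probe set, and another of its probe sets rose by 0.70. Acvr2b, an activin receptor, fell by 0.70. Klf10 and Tgif1 passed with each array left out. Acvr2b and the brightest Smad1 probe set lost their calls without E14 replicates 1 or 2 or Cdk4 +/- replicates 1 or 3. Id3 lost its call without any Cdk4 +/- replicate, and Tnc without Cdk4 +/- replicates 1 or 3. The adjusted p of these lost calls ran from 0.0501 to 0.159. Of 28 measured genes of Wnt signalling 1 rose, Tle4, a Groucho corepressor at 513, 537 and 427 in E14 and 1112, 908 and 857 in Cdk4 +/- (1.89-fold, adjusted p = 0.00219), and none fell. Tcf7l1, the TCF factor that restrains pluripotency genes, was lower in every Cdk4 +/- array without passing (log2 -0.58, adjusted p = 0.0585).

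Several transcripts known from the 2-cell embryo and from germ cells rose from low levels. Of 17 measured genes of this list 5 rose (29.4%), none fell, and the median was 0.26. Gm2022 read 253, 339 and 243 in E14 and 526, 717 and 599 in Cdk4 +/-, a 2.09-fold rise without overlap (adjusted p = 0.00128). Ddx4, the germ cell RNA helicase Vasa, read 106, 141 and 159 against 321, 309 and 339 (2.14-fold, adjusted p = 0.0150). Usp17la (log2 0.93), Tcstv1 (0.83) and Tcstv3 (0.77), all from families active at the 2-cell stage, made up the rest. Mean signals in ESVJ were far above E14 and Cdk4 +/- for Gm2022 (3429), Tcstv1 (1667) and Tcstv3 (1415), with 614, 542 and 246 in Cdk4 +/-. Ddx4 was at 227 in ESVJ, below its Cdk4 +/- mean of 323. Usp17la had mean signals of 32.9 in E14 and 91.6 in Cdk4 +/-, both below the filter of 100, and was tested because ESVJ and Abca1 +/- were at 458 and 406. Spin1, a spindlin gene of the list, was at 0.33 by its brightest probe set and rose by 0.94 by another (adjusted p = 0.0150), a call lost without E14 replicates 1 or 2 or Cdk4 +/- replicates 1 or 3 (adjusted p from 0.0522 to 0.0698). Gm2022, Usp17la and the Tcstv genes belong to families of near-identical copies, so the array cannot assign their signal to 1 copy. The share of the list may therefore count some signal more than once. Gm2022 passed with each array left out. Ddx4 lost its call without Cdk4 +/- replicates 1 or 3 or E14 replicate 1, Usp17la without Cdk4 +/- replicates 1 or 3, Tcstv3 without E14 replicate 2 or Cdk4 +/- replicates 2 or 3, and Tcstv1 passed only without E14 replicate 2 (adjusted p from 0.0607 to 0.141).

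Markers of other cell types were compared as lists. Of 8 primitive endoderm markers 6 were measured and 1 rose, Sparc, a matrix glycoprotein gene, at 2479, 2103 and 2308 in E14 and 4156, 3415 and 3643 in Cdk4 +/- (1.62-fold, adjusted p = 0.0224). Sparc made up most of the summed level of these markers, 3057 to 3653 in E14 and 4972 to 5527 in Cdk4 +/-, while the defining factors Gata6 and Sox17 were dim (highest array 135). Gata4, another, ranged from 87.0 to 467 in E14 and from 298 to 617 in Cdk4 +/-, with overlap. Sparc lost its call without E14 replicates 1 or 2 or Cdk4 +/- replicates 1 or 3 (adjusted p from 0.0548 to 0.106). Of 9 fibroblast markers, which would show feeder or differentiated cells, 4 were measured and none passed, with Col1a1 at 0.36 and Col1a2 at 0.30. Their summed level was 2401 to 2520 in E14 and 2744 to 3398 in Cdk4 +/-, and Postn, Lum and Dcn had group means under 100. The part of fibroblast or endoderm cells in the other results was not tested. Trophectoderm markers summed to 17800 to 20890 in E14 and 18060 to 19060 in Cdk4 +/-, nearly all of it from Krt8 and Krt18, with Cdx2 and Eomes at group means under 100.

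In the wider neuroectoderm list 3 of 24 measured genes rose, 2 fell and 19 did not pass. Pou3f1, a POU factor of the primed epiblast and neural cells, read 271, 263 and 154 in E14 and 91.0, 110 and 76.7 in Cdk4 +/- (log2 -1.04, adjusted p = 0.0208). Ina, the neuronal filament protein internexin, read 1542, 1534 and 1158 against 672, 552 and 786 (log2 -1.04, adjusted p = 0.00890), and its other probe set fell too (-0.97). Nnat, an imprinted neuronal gene, rose by 1.08, En2, a homeobox gene of the midbrain, by 0.78, and Marcks, an actin regulator, by 0.70. Ina passed with each array left out by the first of these probe sets. Pou3f1 lost its call without E14 replicates 1 or 2 or Cdk4 +/- replicates 1 or 3, En2 without Cdk4 +/- replicates 1 or 3, Nnat also without E14 replicate 1, and Marcks passed only without E14 replicate 3 (adjusted p from 0.0573 to 0.178). Sox4, a SOX factor of neural progenitors, was at 0.08 by its brightest probe set and rose by 0.86 by the dimmer one (adjusted p = 0.0277), a call lost without any array but E14 replicate 3 (adjusted p from 0.0588 to 0.113). None of 15 measured mesoderm and primitive streak genes and none of 15 trophectoderm genes passed.

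Few genes of mitosis or of DNA replication passed. Of 32 measured genes of mitosis and condensin 3 rose, none fell and 29 did not pass, with a median of 0.11. Prc1, which bundles microtubules at the spindle midzone, read 1518, 1445 and 1298 in E14 and 2868, 2472 and 2445 in Cdk4 +/-, without overlap (1.81-fold, adjusted p = 0.00231). Smc2, a condensin ATPase, read 1338, 1392 and 1249 against 3007, 1986 and 1980, with Cdk4 +/- replicate 1 well above the other arrays (1.70-fold, adjusted p = 0.0184). Smc3, a cohesin subunit, rose 1.65-fold. Prc1 passed with each array left out, Smc2 did not without E14 replicates 1 or 2 or Cdk4 +/- replicate 1, and Smc3 did not without Cdk4 +/- replicates 1 or 3 or E14 replicate 1 (adjusted p from 0.0522 to 0.0794). Of 36 measured E2F targets and replication genes 2 fell, none rose and 34 did not pass, with a median of -0.01, 17 above 0 and 19 below. The share that passed was 9.38% for the mitosis list and 5.56% for the replication list, with 5.3% of all genes. Fen1, the flap endonuclease of lagging-strand synthesis, fell by 0.57 and Orc1, the largest origin recognition subunit, by 0.43. Fen1 lost its call without E14 replicates 1 or 2 or Cdk4 +/- replicates 1 or 3, and Orc1 passed only without Cdk4 +/- replicate 2 (adjusted p from 0.0738 to 0.175). Ccna2, the cyclin of S and G2 phases, was at 0.37 (adjusted p = 0.0721) and Top2a at 0.38 (adjusted p = 0.104).

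Among 36 measured genes of DNA methylation and Polycomb regulation 2 rose and 3 fell. Yy1, a zinc finger factor that links Polycomb and enhancers, read 874, 920.0 and 1099 in E14 and 552, 396 and 498 in Cdk4 +/-, a fall of 0.96 on the log2 scale without overlap (adjusted p = 0.00436). Hdac1 rose, as above, and so did Cbx5, the heterochromatin protein HP1alpha (log2 0.68 by its brightest probe set). Another Cbx5 probe set rose by 0.69. Mbd3, a subunit of the NuRD complex, fell by 0.52 and Smarca4, the ATPase of the BAF complex, by 0.51. Yy1 and Hdac1 passed with each array left out. Mbd3, Smarca4 and the brightest Cbx5 probe set did not pass without E14 replicates 1 or 2 or Cdk4 +/- replicates 1 or 3 (adjusted p from 0.0521 to 0.147). Mtf2, a Polycomb partner, was at 0.54 by its brightest probe set and rose by 0.63 by another (adjusted p = 0.0104), a call lost without Cdk4 +/- replicate 3 (adjusted p = 0.0639). Of 44 measured splicing and RNA-binding genes Srsf10 (0.96) and Clk2 (0.56), a splicing factor and a kinase of such factors, rose and Srsf4 fell by 0.49. Srsf10 read 310, 316 and 177 in E14 and 487, 531 and 596 in Cdk4 +/-. Its other probe set was at 0.08 and did not pass (adjusted p = 0.834). Leaving out Cdk4 +/- replicate 1 or 3 ended all 3 calls, leaving out E14 replicate 1 those of Clk2 and Srsf4, and Clk2 was also lost without Cdk4 +/- replicate 2 and Srsf4 without E14 replicates 2 or 3 (adjusted p from 0.0530 to 0.203).

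Few metabolic or cytoskeletal genes passed. None of 28 measured genes of glycolysis and hypoxia and none of 42 actin and SRF target genes did. Hmgcs1, which makes the HMG-CoA that feeds cholesterol synthesis, was the single one of 17 genes of that pathway to fall, at 2130, 2099 and 1385 in E14 and 725, 1441 and 921 in Cdk4 +/- (log2 -0.87, adjusted p = 0.0424). Its E14 replicate 3 lay below its Cdk4 +/- replicate 2, and the call was lost without E14 replicates 1 or 2 or Cdk4 +/- replicates 1 or 3 (adjusted p from 0.137 to 0.181). The median of the list was -0.28, with 13 of 17 genes below 0. Igfbp3, which binds insulin-like growth factors outside the cell, read 2013, 1993 and 1744 in E14 and 1066, 875 and 1038 in Cdk4 +/-, a fall of 0.93 (adjusted p = 0.00443). It was the single change among 30 measured genes of PI3K, mTOR and insulin signalling and passed with each array left out. The other Igfbp3 probe set was at -0.82 and did not pass (adjusted p = 0.128). Map2k4, a kinase upstream of JNK, was the single riser by the brightest probe set among 30 FGF and MAP kinase genes, at 310, 343 and 404 against 652, 646 and 636 (1.77-fold, adjusted p = 0.00862). It also passed with each array left out. Gab1, a docking protein gene of the same list, was at 0.29 by its brightest probe set and rose by 0.88 by the dimmer one (adjusted p = 0.0431), a call lost without any array but E14 replicate 3 (adjusted p from 0.0632 to 0.165). Of 30 apoptosis genes Mcl1, a survival factor of the BCL2 family (log2 0.55), and Casp2 (0.53) rose and none fell. Of 45 ubiquitin and proteasome genes Uchl1, a deubiquitinase gene (-0.61), and Ubac2 (-1.15) fell and none rose. Without Cdk4 +/- replicate 1 none of these 4 passed, Casp2 passed in no fit with 1 array left out, Mcl1 not without E14 replicates 1 or 2 or Cdk4 +/- replicate 3, Uchl1 not without E14 replicate 2 or Cdk4 +/- replicate 3, and Ubac2 only without E14 replicate 3 (adjusted p from 0.0510 to 0.202). Of 23 imprinted genes Nnat rose and Phlda2, a placental growth restraint, fell by 0.55. Phlda2 was lost without E14 replicates 1 or 2 or Cdk4 +/- replicates 1 or 3 (adjusted p from 0.0980 to 0.168).

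**Figure D3:**
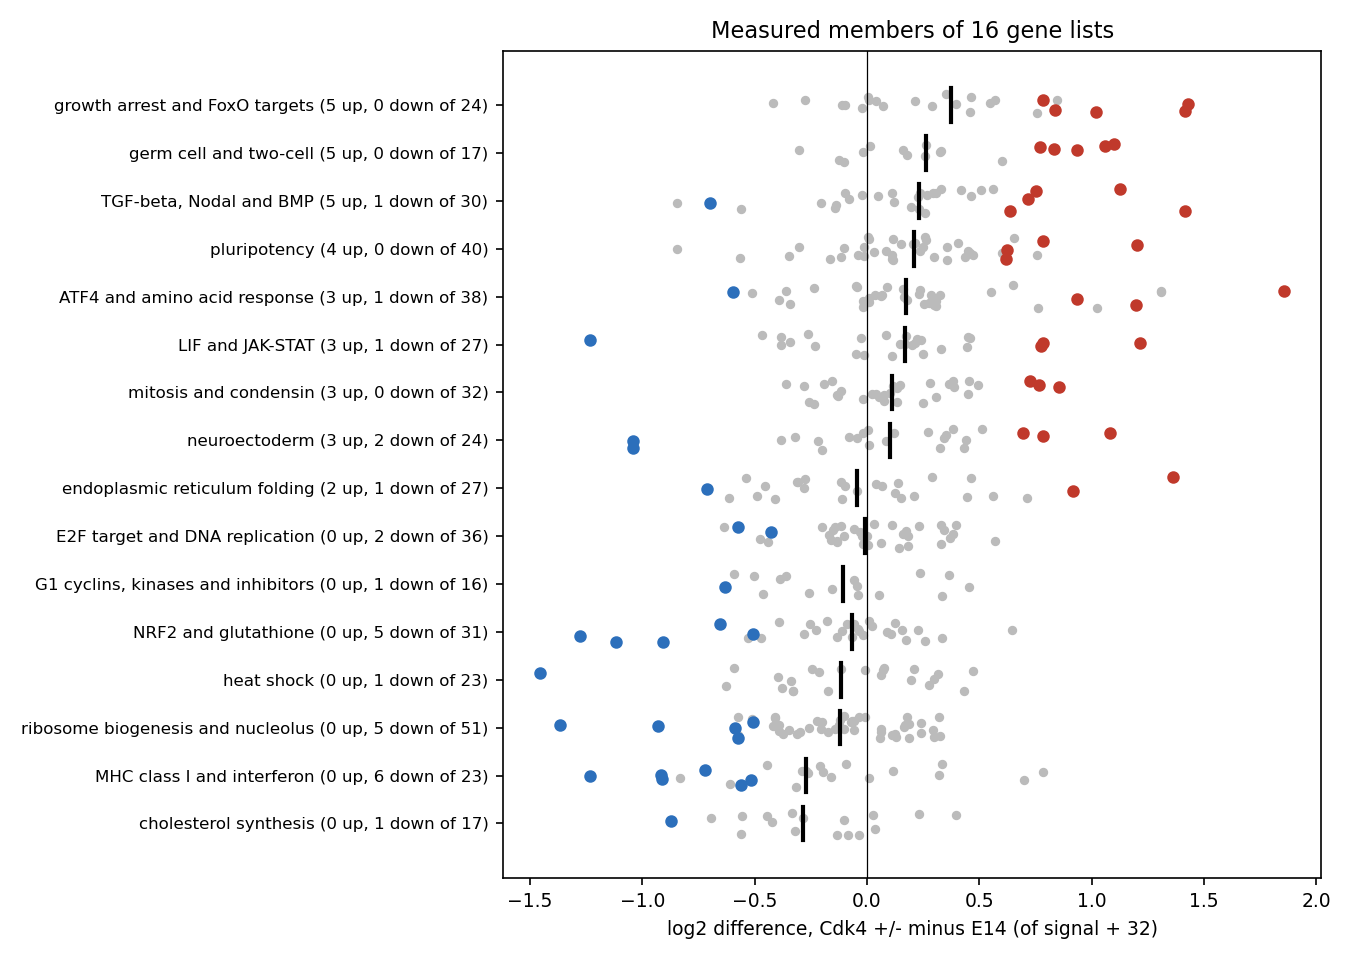
Log2 difference of Cdk4 +/- and E14 for the measured members of 16 gene lists (1 point per gene; red rose, blue fell, grey did not pass; black bars are list medians). The medians run from 0.37 for growth arrest and FoxO targets to -0.28 for cholesterol synthesis, with 0.02 over all genes.

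The remaining genes with the largest differences were mostly dim. Ap5s1, a subunit of an endosomal adaptor, read 48.1, 68.4 and 12.1 in E14 and 108, 154 and 249.1 in Cdk4 +/- (2.74-fold, adjusted p = 0.0330). Clip3, a membrane-associated linker protein gene, read 42.8, 77.0 and 37.7 against 188, 191 and 152 (2.51-fold, adjusted p = 0.0146). Uqcc1, an assembly factor of respiratory complex III, rose 2.11-fold and AI506816, a transcript without an assigned product, 2.16-fold. These genes were dim in E14, where a fold depends on the number added before the logarithm. Epb41l4aos, a transcript antisense to Epb41l4a, was bright and read 1816, 1700 and 1188 in E14 and 721, 724 and 684 in Cdk4 +/- (log2 -1.09, adjusted p = 0.00144), without overlap. Of these, Epb41l4aos passed with each array left out. Clip3 was lost without E14 replicate 1 or Cdk4 +/- replicate 1, Uqcc1 without Cdk4 +/- replicates 1 or 3 or E14 replicate 2, AI506816 without E14 replicates 1 or 2 or Cdk4 +/- replicates 2 or 3, and Ap5s1 passed only without E14 replicate 2 (adjusted p from 0.0501 to 0.141).

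**Figure D4:**
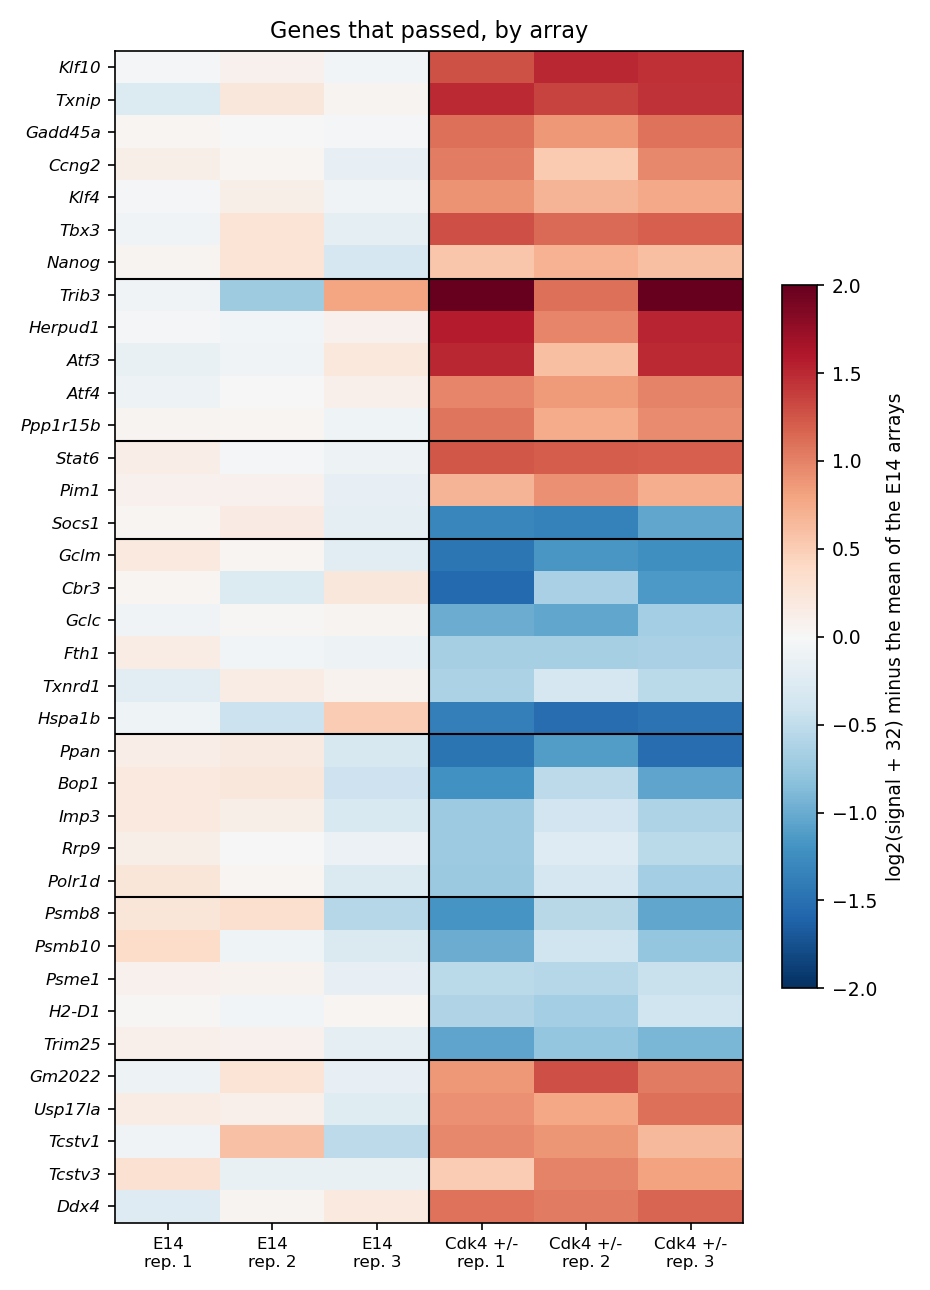
Colour gives log2(signal + 32) minus the mean of the E14 arrays for genes that passed, in 3 E14 and 3 Cdk4 +/- arrays; lines separate growth arrest and pluripotency, stress response, JAK-STAT, NRF2 and heat shock, ribosome assembly, antigen presentation and 2-cell genes. Klf10 and Stat6 vary little within each line, while for Trib3, Atf3, Bop1 and Psmb10 Cdk4 +/- replicate 2 is paler than the other Cdk4 +/- arrays.

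The arrays of a line were not equally far from the other line. For 185 of the 361 probe sets that passed (51.2%), Cdk4 +/- replicate 2 was the Cdk4 +/- array nearest to the E14 mean, against 37.7% of all probe sets tested. For 178 of them (49.3%), E14 replicate 3 was the E14 array nearest to the Cdk4 +/- mean, against 41.7% of all. Leaving out E14 replicate 3 raised the number that passed, as given above, and leaving out Cdk4 +/- replicates 1 or 3 lowered it. The part of the hybridisation of Cdk4 +/- replicate 2 in these values was not tested.

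Genes that rose and genes that fell differed in the length they span in the genome. The median span was 22.0 kb for 158 genes that rose, 9.82 kb for 137 that fell and 19.3 kb for 5585 tested genes with a position. With these genes ordered by span in 5 groups of 1117, the median log2 difference went from -0.04 for genes up to 6.49 kb to 0.10 for genes of 52.9 kb or more. In the shortest group 25 genes rose and 52 fell, and in the longest 36 rose and 11 fell. In the Abca1 +/- comparison the medians of the 5 groups stayed between -0.01 and 0.01. The gap between the longest and the shortest group was 0.14, and 0.0925 to 0.212 with 1 array left out. The groups also differed in brightness. The median signal was 768 for genes that rose, 1120 for genes that fell and 565 for all tested genes with a position. The longest genes had a median signal of 436, with 597 to 634 in the other groups, and the part of signal level in this pattern was not tested.

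**Figure D5:**
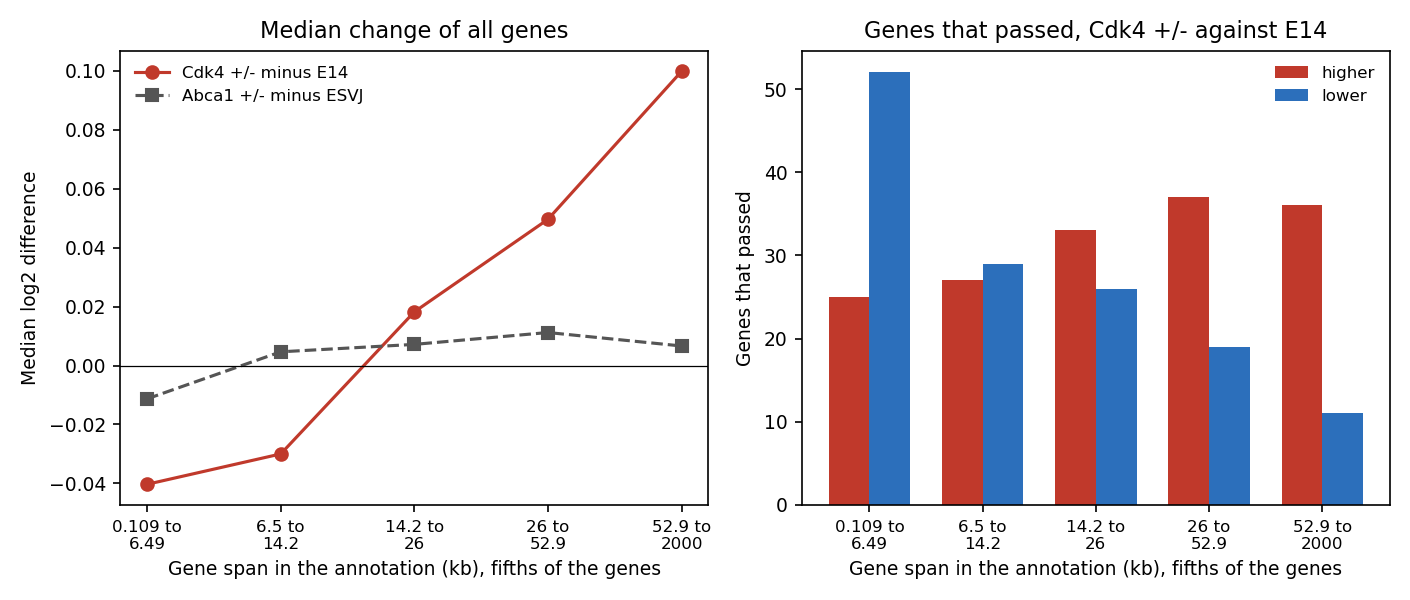
Left, median log2 difference of the genes in each of 5 groups by genomic span (kb) for Cdk4 +/- minus E14 (red circles) and Abca1 +/- minus ESVJ (grey squares); right, number of genes that rose and fell in Cdk4 +/- in each group. The Cdk4 +/- medians climb from -0.04 to 0.10, and the genes that fell drop from 52 in the shortest group to 11 in the longest.

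Probe sets of the same gene mostly moved together. Of 76 genes with a probe set that passed and at least 1 other that was tested, 62 had all others on the same side of 0, 10 had another that passed in the same direction, and none had another that passed in the opposite one. In 14 genes some other probe set lay on the opposite side, among them Txnip, Fth1, Bop1 and Tufm, a mitochondrial elongation factor gene. The E2F site TTTNGCGC, searched on both strands, was found in 5.56% of 126 higher and 3.51% of 114 lower genes with a promoter window, with 1.13% of all windows, and the E box CACGTG in 15.1% and 10.5%, with 6.02% of all windows. For every motif given here, the windows also cover genes that were not tested. The share among the tested genes is not given, so no enrichment is read from these values.

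The Cdk4 +/- difference was compared with the Abca1 +/- difference (Abca1 +/- minus ESVJ) in the same fit, as a test of whether the lines differ in their effects. The comparisons share no array, and the pairs of lines differ in feeders and parent line as well as in the gene, which cannot be told apart. In Abca1 +/- cells 2 probe sets passed (0.0272%). The difference of effects itself passed for 46 probe sets (0.626%), 31 with a higher and 15 with a lower signed change in Cdk4 +/-, and 44 of the 46 were among the 361. Of 38 genes among them, Txnip (difference 1.46, SE 0.19), Gm2022 (1.46, SE 0.20) and Klf10 (1.43, SE 0.20) passed whichever of the 12 ES arrays was dropped, while the other 35 lost their call in some of these fits (adjusted p up to 0.141). Ddx4 (1.60) and Tbx3 (1.48) had the largest positive differences beside them, and Ppan (-1.32), Gclm (-1.31), Cd99, a surface glycoprotein gene (-1.30), Trim25 (-1.21) and Epb41l4aos (-1.21) the largest negative ones. Cd99 was at -0.64 in Cdk4 +/- and 0.66 in Abca1 +/-, where it did not pass. Without Cdk4 +/- replicate 3 the count of 46 was 5 and without E14 replicate 3 it was 93.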

How the data were processed

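Total RNA of 16 samples had been hybridised to Affymetrix U74Av2 arrays, and the deposited values are linear probe set intensities from MAS5.0 at default settings, per the labels' protocols. Per the file's values, the authors' arrays share a 2% trimmed mean of about 1501 (1500.8 to 1501.6). No detection calls were used here. Each array was rescaled to a trimmed mean of 500, 32 was added and log2 taken. Probe sets with a mean signal of at least 100 over the 12 ES arrays were tested with limma 3.58.1 (R 4.3.3), with the 4 ES groups in 1 fit (8 residual degrees of freedom), an intensity trend, moderated statistics and Benjamini-Hochberg adjustment over all 7349, and a threshold of 0.05. Summaries used Python 3.11.15 and pandas 2.3.3. A gene was represented by its brightest probe set. Genes came from GEO's platform annotation, of which 10839 of 10855 single-gene probe sets matched RefSeq by Entrez identifier.

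Named were the 15 largest rises and falls that passed without overlap, every list member that passed, up to 3 more members per list with the smallest p, the 3 measured neighbours on each side of Cdk4, and the 5 largest differences of effects in each direction. Not all of the further members that did not pass are given in the text, and 1 gene that passed is not reported here. The members and lists were chosen with earlier results of these data known. The procedure was tested on simulated data. It found 22% of changes of 0.5 on the log2 scale, 78% of 1.0, 94% of 1.5 and 100% of 2.0. It also called 9 probe sets that had not been changed. A gene that did not pass may therefore still have changed by a small amount. Alternatives were pseudocounts of 1 and 100, quantile normalization, no filter, a filter of 200, no trend, only the 6 arrays, and each array left out.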

Additional observations from a re-analysis of the deposited data

Results flagged for a closer look

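For 25 named genes the Cdk4 +/- difference and the Abca1 +/- difference, each against its own +/+ line, were not equal by the test of the difference itself (limma adjusted p under 0.05, log2 units, Cdk4 minus Abca1). Among genes of growth arrest and signalling the difference of effects was 1.464 for Txnip, 1.427 for Klf10, 0.9321 for Gadd45a, 0.9239 for Klf4, 1.27 for Stat6, -1.202 for Socs1, 0.8385 for Tgif1 and -1.096 for Igfbp3. For the pluripotency factor Tbx3 it was 1.48, and for the germ cell and 2-cell genes it was 1.599 in Ddx4 and 1.464 in Gm2022. Genes of glutathione and iron had -1.31 (Gclm), -1.092 (Gclc) and -0.8084 (Fth1). Ppan, of ribosome assembly, had -1.319, Ppp1r15b, of the stress response, 1.049, and Trim25 -1.214. The chromosome genes Smc2 and Prc1 had 1.109 and 0.8502, the chromatin genes Cbx5 and Yy1 had 1.233 and -1.112, and the splicing factor Srsf10 had 1.423. Cdk4 had -0.6758, Epb41l4aos -1.21 and Cd99 -1.295. With each of the 12 ES arrays left out, Klf10, Gm2022 and Txnip passed every time (adjusted p up to 0.0336, 0.0308 and 0.0282). Cdk4 passed in 1 of the 12 fits and Gclc in 0 of 12. The lines also differ in feeders and parent line, and the part of these in the differences was not tested.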

How the results depend on the processing

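Of 361 probe sets, 190 were higher and 171 lower. Without a signal filter these counts were 115 and 81, without an intensity trend 137 and 90, and with only the 6 arrays in the fit 97 and 65. With 1 array left out they ran from 42 to 262 higher and from 26 to 259 lower, with the lowest without Cdk4 +/- replicate 1 and the highest without E14 replicate 3. The other settings kept both counts within 1.5 times. The 46 differences of effects became 16 without a filter, 19 without a trend, and 5 to 93 with 1 array left out, lowest without Cdk4 +/- replicate 3 and highest without E14 replicate 3. The cause of these shifts was not tested. None of 84 named genes reversed, and 42 passed in all 7 settings that keep every array. With 1 array left out, 10 (without E14 replicate 3) to 52 (without Cdk4 +/- replicate 1) of the 84 lost their call. No paired analysis was possible because the labels give no number that ties an E14 array to a Cdk4 +/- array. Dim genes have signals near the added 32, which limits their folds.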

Other observations

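The lists below were written after the values were seen, so they are described without a test. Of 24 measured autophagy genes, each counted by its brightest probe set, 6 rose and 1 fell, with a median log2 difference of 0.25, against 0.02 over all genes. Calcoco2, a receptor that brings cargo to autophagosomes, was at 0.95, Flcn, the folliculin tumour suppressor, at 0.71, Gabarap at 0.68 and Gabarapl2 at 0.63, both ATG8 proteins of the autophagosome membrane, Nbr1, another cargo receptor, at 0.57, and Vmp1, a membrane protein of autophagosome formation, at 0.43. Map1lc3a, which encodes the ATG8 protein LC3A, fell (-0.59). None of these 7 passed with every array left out in turn (adjusted p of the lost calls from 0.0510 to 0.186). Ulk1, the kinase that starts autophagy, did not pass by its brightest probe set and rose by 0.67 by the dimmer one (adjusted p = 0.0363), a call lost without any array but E14 replicate 3 (adjusted p from 0.0553 to 0.142).

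Of 58 measured genes of mitochondrial ribosomal proteins 6 fell and 1 rose, with a median of -0.15 and 46 of the 58 below 0. Mrpl12, a subunit that also binds mitochondrial RNA polymerase, fell by 0.92 on the log2 scale, and Mrps10, Mrpl54, Mrpl46, Mrps28 and Mrpl20 fell too, while Mrps31 rose. None passed with every array left out in turn (adjusted p of the lost calls from 0.0586 to 0.151). Of 27 genes with an Rpl or Rps name 1 fell, Rps4l, and none rose, with a median of 0.08. Most encode cytosolic ribosomal proteins, but the names also took in the S6 kinase genes Rps6kb2 (0.65) and Rps6kc1 (-0.13).

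Of 71 measured zinc finger genes with a Zfp, Zkscan or Zscan name 6 rose and none fell, with a median of 0.16. They were Zfp638, Zfp62, Zfp97, Zfp871, Zfp930 and Zkscan14, and Zfp930 passed with each array left out.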
